A study of Caenorhabditis elegans with 2 samples.

Results

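The regions described here are the strong intronic regions of a ChIP-seq experiment on eGFP-tagged R02D3.7, a protein whose gene is named rcat-1 in the annotation used. The material was whole L2 larvae of Caenorhabditis elegans of mixed sex, from strain OP218, which carries unc-119(ed3) on chromosome III and the transgene wgIs218 that supplies the tagged protein. There was 1 group with 2 biological replicates, and every animal carried both the mutation and the transgene. Whole animals were used, so a region bound in a few cells and one bound weakly in many cannot be told apart. The members were chosen by the measured signal and by position. A list of 30000 candidate regions, called by the authors on the reads of both replicates joined, was sorted by its signal value, and ranks 1 to 3000 were kept. Of these 3000 regions, 441 (14.7%) were members, each with an autosomal summit inside a protein-coding gene. The summit, the point of highest signal, lay in no exon of any gene and outside the window from 1000 bp upstream to 200 bp downstream of every protein-coding 5′ end. The other regions of these ranks had summits in such promoter windows (1279), between genes (486), in exons (298) or on X (496). A further 6332 candidates of the later ranks met the same rule of position and are called the weaker intronic candidates.

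Introns can hold enhancers and other control elements of their host gene, and in C. elegans they also hold many small RNA genes. Small nucleolar RNAs (snoRNAs) guide chemical modification of ribosomal and other RNAs, and small nuclear RNAs (snRNAs) are parts of the splicing machinery. Genes for tRNAs are read by RNA polymerase III from control boxes inside the gene, known as box A and box B. Many C. elegans messenger RNAs receive a spliced leader, so that an annotated 5′ end often marks the leader junction and not the start of transcription.

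Several kinds of sequence stood at the members, and examples are printed because the later results refer to them. The first set is the stretch of 100 bases that ends at the base before the annotated 5′ end of a small RNA gene, for members with a summit close to that end. Each is read 5′ to 3′ on the strand of the RNA gene, from the RefSeq copy of the WBcel235 (ce11) assembly. In these the capitals mark a gapped pattern, GNAACNC and TGTC separated by 6 free bases. The pattern was read from these sequences after they had been seen.
ZK994.7 in pxn-1 (chrV:8500479-8500578, plus strand): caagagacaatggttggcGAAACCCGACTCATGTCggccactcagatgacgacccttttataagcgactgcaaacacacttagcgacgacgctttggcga
R07E5.16 in dhc-4 (chrIII:10989579-10989678, plus strand): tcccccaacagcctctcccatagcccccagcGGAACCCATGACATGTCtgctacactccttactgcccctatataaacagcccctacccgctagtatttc
C08D8.3 in C08D8.1 (chrV:8349008-8349107, plus strand): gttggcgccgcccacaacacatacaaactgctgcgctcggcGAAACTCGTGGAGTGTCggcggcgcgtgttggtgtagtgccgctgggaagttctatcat
T06D8.11 in plpr-1 (chrII:11224082-11224181, plus strand): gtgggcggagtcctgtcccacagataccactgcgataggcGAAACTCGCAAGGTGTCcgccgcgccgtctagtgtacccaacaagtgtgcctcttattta
C16D9.11 in rol-3 (chrV:8228970-8229069, minus strand): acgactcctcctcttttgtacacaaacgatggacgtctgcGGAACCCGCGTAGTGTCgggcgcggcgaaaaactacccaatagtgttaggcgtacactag
F01D5.12 in F01D5.10 (chrII:14018442-14018541, minus strand): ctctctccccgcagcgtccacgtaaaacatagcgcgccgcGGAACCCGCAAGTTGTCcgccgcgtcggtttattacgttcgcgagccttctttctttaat

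The same stretch before 4 other snoRNA genes held no gapped pattern. Here the capitals mark a box A pattern, TGGC and AGTGG separated by 2 free bases, or a box B pattern, GTTCGA and CC separated by 2 free bases. Both follow the control boxes of tRNA genes. The stretches before the other 3 snoRNA genes near a summit, Y38F2AR.14, B0334.12 and C27H6.5, held none of these patterns and are not printed.
C04G6.12 in mpk-2 (chrII:5105232-5105331, minus strand): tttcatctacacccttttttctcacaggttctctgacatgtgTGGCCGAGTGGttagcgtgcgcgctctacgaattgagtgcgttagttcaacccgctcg
C27H5.9 in pdl-1 (chrII:7184079-7184178, minus strand): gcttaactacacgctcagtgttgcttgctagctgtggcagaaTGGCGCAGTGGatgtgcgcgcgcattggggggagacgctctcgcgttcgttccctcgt
T24H7.6 in T24H7.2 (chrII:6248617-6248716, plus strand): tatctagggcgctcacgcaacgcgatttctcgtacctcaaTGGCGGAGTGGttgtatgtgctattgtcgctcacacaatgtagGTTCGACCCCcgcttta
F11A10.9 in rbm-34 (chrIV:12086609-12086708, plus strand): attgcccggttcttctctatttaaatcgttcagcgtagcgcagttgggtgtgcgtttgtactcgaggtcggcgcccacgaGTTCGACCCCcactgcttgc

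The last set is the summit with 50 bp to each side at strong members that lay beside no annotated snoRNA, snRNA or tRNA gene. The capitals mark the words ACGCGC and also GACGCA and also CGTAAA on either strand, which earlier work on the strongest peaks of these data had named. ACGCGC and GACGCA share the letters ACGC. The last line, the stronger of the first 2 regions in pqn-41, held none of the 3 words and is shown for its run of alternating g and t and of c and a.
Y75B8A.25 (chrIII:12278901-12279001, plus strand): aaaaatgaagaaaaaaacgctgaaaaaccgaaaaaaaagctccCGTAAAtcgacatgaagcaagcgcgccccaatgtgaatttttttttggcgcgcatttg
epg-9 (chrIV:2602142-2602242, plus strand): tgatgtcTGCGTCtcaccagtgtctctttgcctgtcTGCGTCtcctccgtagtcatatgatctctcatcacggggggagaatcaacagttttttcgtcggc
spop-1 (chrIII:10096659-10096759, plus strand): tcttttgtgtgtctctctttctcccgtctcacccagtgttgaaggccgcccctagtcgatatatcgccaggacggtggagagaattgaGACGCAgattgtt
Y111B2A.12 (chrIII:12612596-12612696, plus strand): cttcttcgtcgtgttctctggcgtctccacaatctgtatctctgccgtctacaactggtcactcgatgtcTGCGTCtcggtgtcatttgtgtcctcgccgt
pqn-41 (chrIII:1925272-1925372, plus strand): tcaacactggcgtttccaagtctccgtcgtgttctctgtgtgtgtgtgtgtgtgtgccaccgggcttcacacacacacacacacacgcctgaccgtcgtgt

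Signal at the members ran from 22 to 315, with a median of 24.7 (quartiles 23.2 and 27). It is the value the authors' peak caller gave each region, with no stated scale. The median was 29 at the promoter windows of the same ranks and 24.5 between genes. The values lay close together at the end of the list. The last member, in F55F10.1, ranked 2998 with a signal of 22.002, and the first intronic region outside, in dnj-20, had 21.994. At the edges of the window, a summit in mstr-1 lay 1007 bp upstream of the 5′ end of kin-14 and was kept, while one in taf-6.2 lay 997 bp upstream of Y37E11AL.3 and was not. Downstream, a summit in gtf-2H2C 203 bp after its 5′ end was kept and one in F28F8.7 at 192 bp was not. No candidate of the joined list overlapped rcat-1 itself (chromosome IV, 253619 to 255429, minus strand).

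The strongest member lay in intron 29 of 31 of let-363, which encodes the TOR kinase, a regulator of growth by nutrients (chromosome I, 5261690 to 5261900). Its joined signal was 315 at rank 42, with 219 in replicate 1 and 96.8 in replicate 2. It stood well apart, since the next member had a joined signal of 85.7. That one lay in intron 4 of 6 of Y75B8A.25, annotated as a protein with a Ran-binding domain (chromosome III, 12278786 to 12279115), with 55.6 in replicate 1 and 29.5 in replicate 2. The region in intron 17 of 21 of pxn-1, encoding a peroxidasin of the extracellular matrix, had 82.3 jointly, 67.2 in replicate 1 and 16.9 in replicate 2 (chromosome V, 8500338 to 8500667). All 3 were found in both replicates, with the higher value in replicate 1.

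The other hosts of the leading members varied in function. The region in Y56A3A.7, annotated as a cut-like homeobox protein, had a joined signal of 67.5, with 60.5 in replicate 1 and 7.54 in replicate 2. Genes of chromatin and transcription included zfp-1, a PHD finger protein (53.8), let-526, an ARID protein of the SWI/SNF chromatin remodelling complex (45.8 and 40.4), the nuclear receptor nhr-19 (48.3) and daf-5, a Ski homolog of the dauer TGF-beta pathway (39.2). For nhr-19, replicate 1 had 37.8 and replicate 2 had no overlapping candidate. For daf-5 the replicates had 24.9 and 14.7. Genes of RNA and protein turnover included smg-2, the helicase of nonsense-mediated decay (42.2), epg-9, the ATG101 homolog of autophagy (52.7), and spop-1, a homolog of a ubiquitin ligase adaptor (45.7). In smg-2 and spop-1 the signal of replicate 2 was low, at 8.95 and 8.13, beside 33.4 and 33.5 in replicate 1. In epg-9 the replicates had 32.8 and 18.

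Genes of the cytoskeleton and of cell division included dhc-4, a dynein heavy chain (61.6), and rsa-2, a regulator of spindle assembly (54.4). Metabolic and signalling hosts were Y67D8A.2, annotated as a regulatory subunit of phosphorylase kinase (43), ppfr-1, a regulatory subunit of protein phosphatase 4 (40), and plpr-1, annotated with a phosphatidic acid phosphatase domain (46.1). The region in ppfr-1 had 36.9 in replicate 1 and no candidate in replicate 2. C08D8.1 (60.6) is annotated as an UNC93-like protein, T28F4.1 (54.9) as a SERTA domain protein and Y111B2A.12 (44.9) as a WD repeat protein. In T28F4.1 the replicates stood close together, at 29.6 and 21.5, and likewise in zfp-1, at 27.6 and 22.5. The stronger region of let-526 was the one leading member with the higher value in replicate 2, at 23.7 against 20.2.

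**Figure D1:**
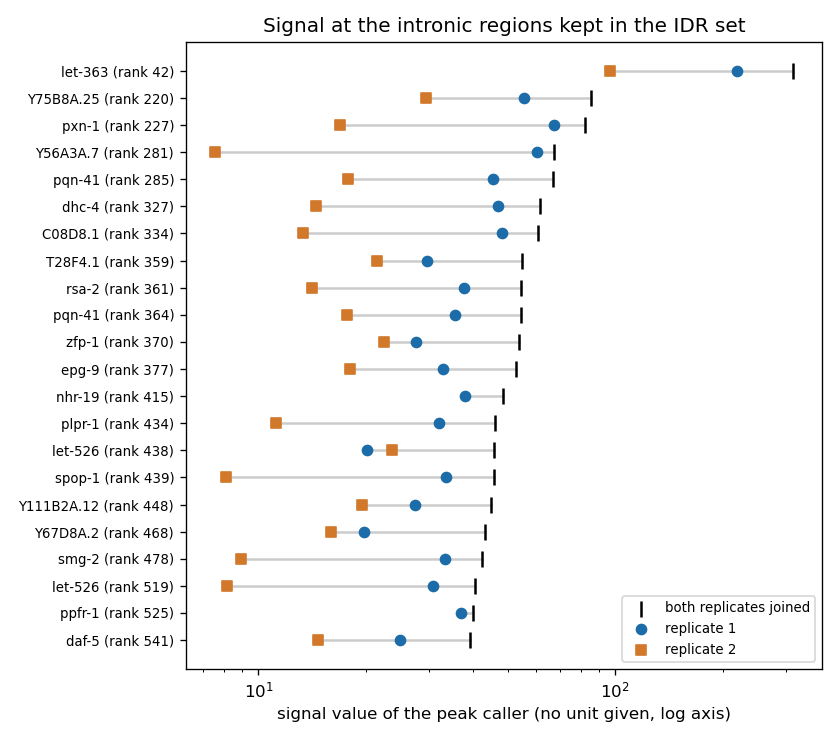
Signal values of the peak caller (log axis, no unit given) at the 22 intronic regions kept in the IDR set, named by host gene and joined rank; circles are replicate 1, squares replicate 2 and bars the joined reads. The joined value lies above both replicates throughout, replicate 2 is the lower one except at the let-526 region of rank 438, and nhr-19 and ppfr-1 have no square.

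Most hosts held a single region. The 441 members lay in 413 genes, of which 387 held 1 member, 24 held 2 and 2 held 3. In pqn-41, a polyglutamine-repeat gene that promotes death of the linker cell, all 3 regions lay in intron 14, which is 10372 bp long. Their joined signals were 67.1, 54.3 and 23.4, and the weakest had no candidate in replicate 2. In eps-8, an actin regulator, the 3 regions lay in 3 different introns with signals of 25.3, 22.8 and 22.8. Both let-526 regions lay in its intron 4. Other hosts with 2 members were C08D8.1, zfp-1, nhr-19, spop-1, wac-1.1, Y73F8A.5 and gcn-1, the last encoding an activator of the GCN2 kinase. In all, 10 introns held more than 1 member, which took in 21 members.

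Replicate support is given as a description, because the joined ranks come from the reads of the same 2 replicates. The irreproducible discovery rate (IDR) step, which is meant to keep regions whose order is reproducible between replicates, kept 22 of the 441 members (4.99%, 95% Wilson interval 3.32 to 7.44). It kept 1.81% of all 30000 candidates, 33.6% of the regions in promoter windows and 5.56% of those between genes. The kept set was ranks 1 to 542 of the joined list, and the members were chosen by that same signal, so nothing is read from these shares. The kept members did not each rank alike in both replicates, since in Y56A3A.7 the rank was 230 in replicate 1 and 10125 in replicate 2, and nhr-19 and ppfr-1 had no candidate in replicate 2. Wilson intervals here cover counting error only.

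A weaker form of support was common. Any candidate of both replicates was overlapped by 339 members (76.9%, interval 72.7 to 80.6), beside 30.7% of all candidates, 83.3% in promoter windows and 78.8% between genes. Replicate 1 had a candidate at 427 members (96.8%) and replicate 2 at 353 (80.0%), and no member lacked both. Over all ranks 1 to 3000 these shares were 97.5% and 83.2%, and over all candidates 68.4% and 53.1%. Both were lacking at 0.0667% of those ranks and 9.20% of all candidates. Support among each replicate's own 3000 strongest candidates was scarcer, at 37 members for both lists (8.39%, interval 6.15 to 11.4), beside 2.41% of all candidates, 36% in promoter windows and 11.3% between genes. A further 180 members (40.8%) were in the strongest 3000 of replicate 1 alone, 89 (20.2%) in those of replicate 2 alone, and 135 (30.6%) in neither. Over all ranks 1 to 3000 these shares were 38.7%, 15.8% and 23.2%, and over all candidates 8.10%, 6.64% and 82.8%. By joined rank, both lists held 16 of 22 members at ranks 1 to 542, 15 of 55 at ranks 543 to 1000, 6 of 189 at the ranks from there to 2000 and 0 of 175 after that. This order follows in part from the ranking itself, and nothing is read from it.

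The intronic share of the list differed by rank. Members made up 4.06% of ranks 1 to 542, 12% of ranks 543 to 1000, 18.9% of the ranks from there to 2000 and 17.5% of the ranks after 2000. When the rule was applied to each replicate's own list, replicate 1 gave 448 regions and replicate 2 gave 542. Of these, 32 overlapped, which is 7.14% of the first and 5.90% of the second. The same overlap was not counted for other classes of region, so nothing particular to introns is read from it.

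Among the 339 members found in both, the median signal was 14.8 in replicate 1 and 8.65 in replicate 2. The value of replicate 1 was higher at 292 of them, with a median log2 ratio of 0.81, beside 1.19 in promoter windows and 0.75 between genes. The scales of the 2 lists are not known to be comparable. The widest differences in order between replicates were at eat-2, a nicotinic receptor subunit of the pharynx, where replicate 1 had 8.44 and replicate 2 had 18.1, and at gcn-1, with 22.5 and 4.9. The deubiquitinase gene cyld-1 had 8.42 and 17.3, the F-box gene Y50D7A.1 had 8.90 and 17, and the kinase gene wnk-1 had 7.93 and 14.3. Thus 4 of these 5 stood high in replicate 2 and low in replicate 1.

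**Figure D2:**
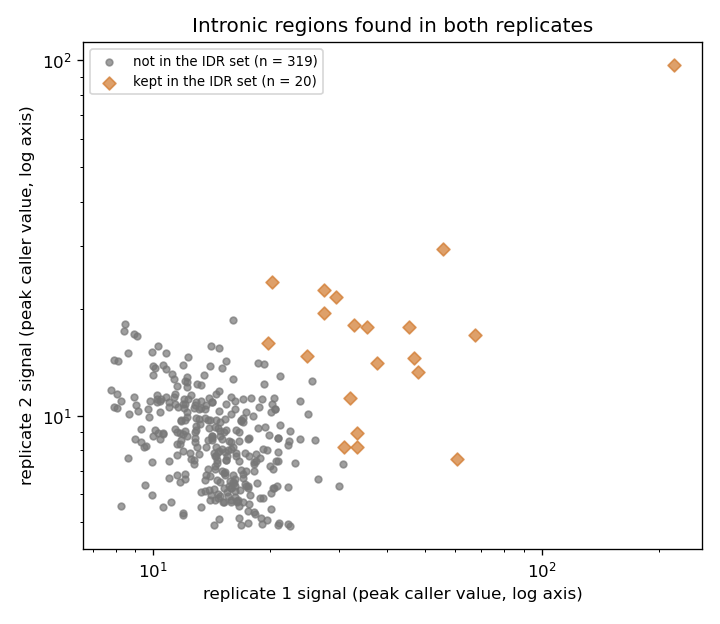
Signal in replicate 1 (horizontal, log axis) against replicate 2 (vertical, log axis) at the 339 intronic regions with a candidate in both; diamonds are regions kept in the IDR set. The region in let-363 stands alone at 219 and 96.8, and the regions outside the IDR set form one cloud at low values.

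First introns held 112 of the 441 members (25.4%, interval 21.6 to 29.7). As an area measure, every 100th base of the autosomes was placed by the same rule, which gave 221641 eligible intron positions, and 20.3% of these lay in first introns. The weaker intronic candidates stood at 21.2%. With joined ranks 1 to 1000 only, the share of the members was 19.5%, below that of the positions. Second introns held 17.5% of the members and 15.9% of the positions, the third introns 12.7% and 13.2%, and later introns 44.4% and 50.6%. Intron number was counted from the 5′ end in the longest transcript of the protein-coding host, by genomic span, with the summit in an intron. Whether that transcript was itself coding was not checked. When the first intron of any transcript was allowed, the share was 36.1%, beside 29.7% of the weaker candidates and 28.0% of the positions.

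The distance from the share of area was widest in long introns. In introns over 3000 bp, 52 of 105 members (49.5%) were in a first intron, against 40.5% of the weaker candidates and 35.9% of the positions there. Between 1000 and 3000 bp the members stood at 17.8% and the positions at 18.6%. Of the 22 in the IDR set, 3 were in a first intron (13.6%, interval 4.75 to 33.3, which takes in the share of all members), in T28F4.1, spop-1 and daf-5. An intron after the third held 15 of the 22 (68.2%, interval 47.3 to 83.6), and the last intron held none of them, beside 65 of all 441 members.

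**Figure D3:**
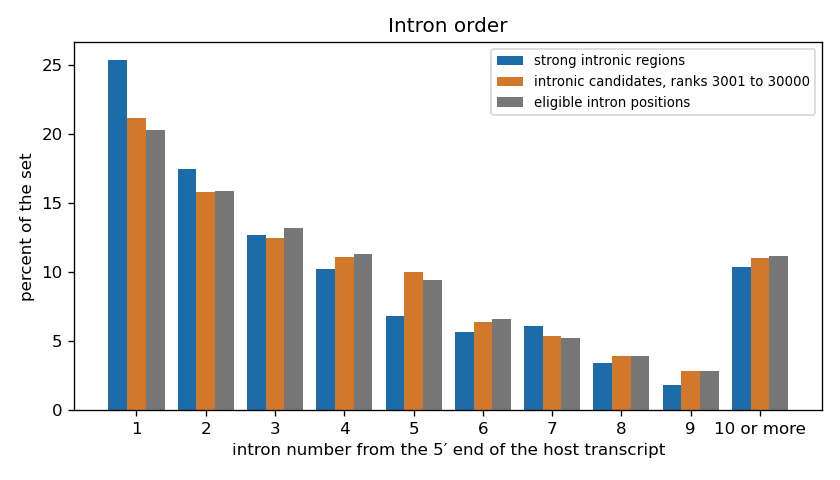
Percent of each set (vertical axis) by intron number from the 5′ end of the host transcript, for the 441 strong intronic regions, the 6332 weaker intronic candidates and the 221641 eligible positions. The first bar of the members stands at 25.4%, above 21.2% and 20.3%, and the fifth stands below, at 6.80% against 10% and 9.41%.

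Host introns were close in median length to those holding the eligible positions, a measure of area in which a long intron counts more often. The median length was 1021 bp at the members (quartiles 444 and 2768), 906 bp at the weaker candidates and 978 bp at the eligible positions, but 2672 bp at the 22 members of the IDR set. The median distance from a member's summit to the nearest protein-coding 5′ end was 1550 bp, beside 1654 bp at the positions. That nearest end belonged to the host in 365 cases (82.8%), against 81.9% of the positions. Members fell on all 5 autosomes, at 81 on I, 78 on II, 93 on III, 106 on IV and 83 on V, or 16.5 to 24.0 per eligible megabase (Mb). Of the 22 in the IDR set, 6 lay on I, 3 on II, 9 on III, 2 on IV and 2 on V. Chromosome III held 19.9% of the eligible positions, and nothing is read from such small counts.

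Small RNA genes lay beside a minority of the members, a larger share than of intron positions at large. A snoRNA gene was within 250 bp of 12 members (2.72%, interval 1.56 to 4.70), beside 0.156% of the eligible positions and 0.142% of the weaker candidates. The distance was set after the data had been seen. By the same rule on each replicate's own list, the share was 1.79% for replicate 1 and 1.66% for replicate 2. Regions with a summit inside a small RNA gene count as exonic and are in none of these sets. Among the other strong regions the share was 1.09% in promoter windows, 2.26% between genes, 2.01% in exons and 0.403% on X. In the IDR set 3 of the 22 intronic regions had a snoRNA gene so near (13.6%, interval 4.75 to 33.3), beside 4 of 27 between genes (14.8%) and 5 of 430 in promoter windows (1.16%).

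The summits lay on the upstream side of the snoRNA genes. At 11 of the 12 the summit was before the annotated 5′ end, at distances from 1 to 118 bp. The exception was B0334.12 in twk-5, where the summit was 200 bp beyond the 5′ end. The RNA gene had the strand of its host in 9 of the 12. In joined order, the summit lay 76 bp before ZK994.7 in pxn-1, 1 bp before C08D8.3 in C08D8.1 and 4 bp before T06D8.11 in plpr-1. Next came Y38F2AR.14 in Y38F2AR.12, at 97 bp, and C04G6.12 in mpk-2, a MAP kinase gene, at 118 bp.

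Both replicates had a candidate at 9 of the 12. At C08D8.3 the signals were 48.0 and 13.3 in replicates 1 and 2, and at T06D8.11 they were 32.1 and 11.2. The members in rbm-34, rol-3 and unc-41 had no candidate in replicate 2, with 25.9, 21.2 and 21.5 in replicate 1. An additional 2 snRNA genes were near, R07E5.16 in dhc-4 with the summit 20 bp before its 5′ end and F32B5.9 in cpz-1 at 57 bp. The single tRNA gene, in F32B4.8, had the summit 6 bp before its 5′ end and was higher in replicate 2, at 18.6 against 16.

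At genes annotated only as ncRNA most summits lay elsewhere. Of 26 members with such a gene within 250 bp, 6 had the summit before its 5′ end. For noncoding genes of any type other than piRNAs, the count was 42 members (9.52%), against 3.35% of the positions. The other strong regions stood higher, at 10.9% in promoter windows, 13.6% between genes, 16.8% in exons and 15.9% on X. Within the IDR set it was 9 of the 22 intronic regions (40.9%, interval 23.3 to 61.3). Of the other IDR regions it was 9 of 27 between genes (33.3%), 7 of 9 in exons (77.8%), 18.5% on X and 14.4% in promoter windows.

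**Figure D4:**
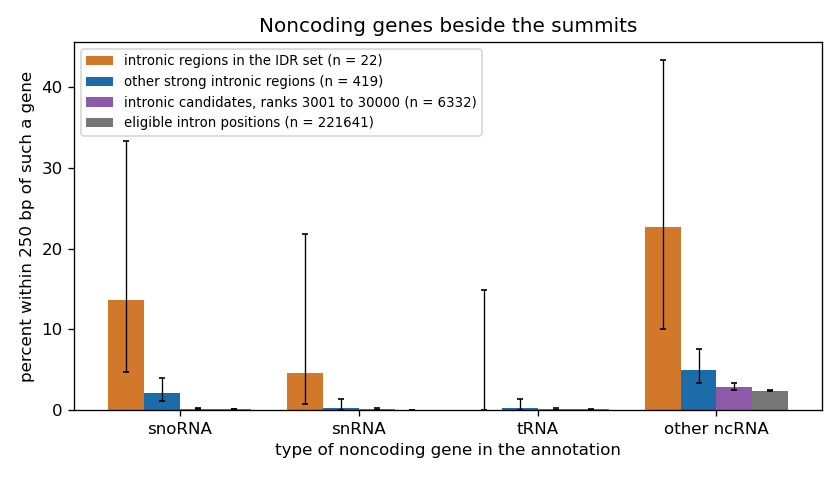
Percent of each set (vertical axis, bars with 95% Wilson intervals) with a gene of the given type within 250 bp of the summit. The bars for snoRNA genes stand at 13.6% and 2.15% for the intronic regions inside and outside the IDR set, with 0.142% and 0.156% for the weaker candidates and the eligible positions.

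The printed upstream sequences differed by host. The gapped pattern occurred within 100 bp of the summit at 7 members, in pxn-1, dhc-4, C08D8.1, plpr-1, cpz-1, rol-3 and F01D5.10. All 7 lay beside a snoRNA or snRNA gene, and of the 426 members beside no snoRNA, snRNA or tRNA gene none held it. Since the pattern was read from these members, their share of 1.59% is no independent measure. Elsewhere, in windows of the same length and on either strand, it was in 0.347% of the eligible positions, 0.158% of the weaker candidates, 0.625% of promoter-window regions and 1.68% of exonic ones. The box A pattern was at 4 members (0.907%, interval 0.353 to 2.31), in mpk-2, twk-5, pdl-1 and T24H7.2, and in 0.250% of the positions. The box B pattern was at 5 (1.13%, interval 0.485 to 2.63), in T24H7.2, rbm-34, Y57G11C.22, kcnl-1 and lgc-55. The last 3 of these had no annotated noncoding gene other than piRNAs within 250 bp. The box B interval takes in the 0.616% of the positions. Other strong regions had box B at 0.547% in promoter windows, 0.617% between genes, 1.68% in exons and 2.02% on X.

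The summit words were scarcer in introns than at promoters, mainly at ranks 1 to 1000. Earlier work named them from the IDR set of these data, in which 430 of 542 regions (79.3%) lay in promoter windows. The words are therefore no independent evidence for this difference. Any of the 3 words lay within 50 bp of the summit at 48 members (10.9%, interval 8.31 to 14.1), in 7.48% of equal windows 300 bp away on either side, and in 8.08% of the eligible positions. It was 30.8% in promoter windows, 10.5% between genes and 8.07% of all 30000 candidates. By the rule on replicate 2's own list the intronic share was 6.46%, and on that of replicate 1 it was 11.6%. CGTAAA was at 6.80% of the members and 5.12% of the positions, GACGCA at 2.49% and 1.78%, and ACGCGC at 1.81% and 1.65%. In the flanks of the members GACGCA was at 2.72%, beside 2.49% at their summits. The median summit lay 250 bp from the nearer intron edge, so flanks 300 bp away often reached past the intron. At ranks 1 to 542 a word was present at 7 of 22 members (31.8%, interval 16.4 to 52.7), against 59.5% in promoter windows and 33.3% between genes. At ranks 543 to 1000 the members stood at 5.45% (interval 1.87 to 14.9), against 28.6% in promoter windows and 15.3% between genes. At the 2 later bins the members stood at 12.2% (interval 8.25 to 17.6) and 8.57% (interval 5.26 to 13.7). Promoter windows there had 14.2% and 9.36%, inside these intervals, and regions between genes 7.34% and 8.57%. Ranks 1 to 542 held 430 of the 1279 promoter regions but 22 of the 441 members. The part of this difference in rank in the gap over all ranks was not tested.

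Base composition differed between the same ranks. GC content at the summits of the 22 members at ranks 1 to 542 was 47.8% ± 6.19 (SD over regions), against 39.9% ± 8.90 in their flanks. The other classes at ranks 1 to 542 also stood above their flanks. They had 48.2% against 33.3% between genes, 45.3% against 36.3% in promoter windows, 54.3% against 38.1% in exons and 45.6% against 33.9% on X. At the members of ranks after 2000 it was 30.7% ± 8.05 (n = 175), below the flanks at 35.5% ± 5.70. Between genes the same ranks had 31.2% ± 7.66 at summits and 33.4% ± 6.03 in flanks. Flanks of intronic summits often reached past the intron, and the part of exon sequence in their GC content was not tested. Over all members it was 32.2% ± 8.97, close to the 32.8% ± 8.50 of the eligible positions. The 12 members beside snoRNA genes stood at 51.1% ± 8.15 and the other 429 at 31.6% ± 8.41. GC content and the share with a word were both highest at ranks 1 to 542. Ranks 543 to 1000 had 33.8% GC and the lowest share with a word, at 3 of 55 members (5.45%, interval 1.87 to 14.9). That interval takes in the shares of both later bins, so no order is read from it. The part of GC content in the share with a word or beside a small RNA gene was not tested.

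**Figure D5:**
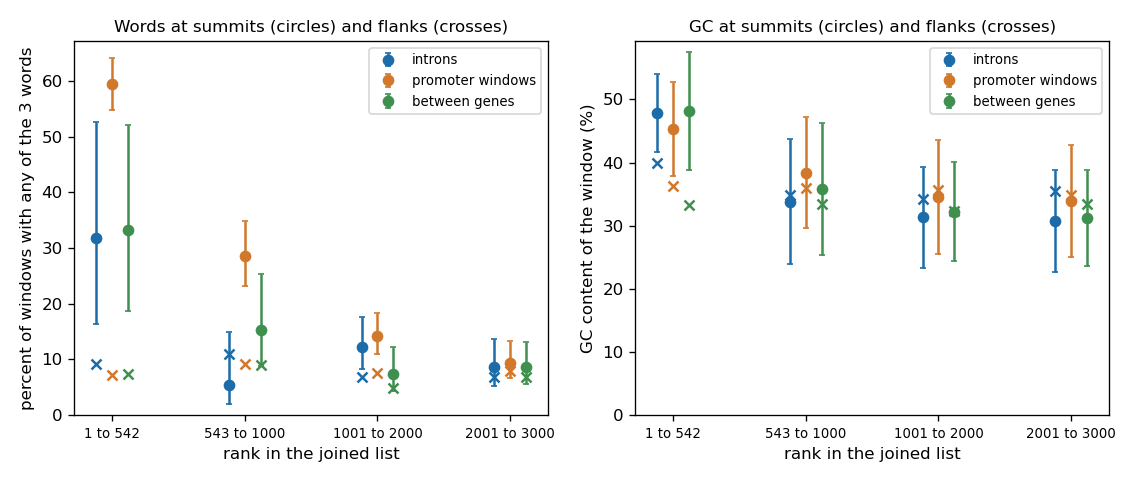
Percent of summit windows with any of the 3 words (left, circles with 95% Wilson intervals) and mean GC content (right, circles with SD over regions) by joined rank for introns, promoter windows and regions between genes; crosses are the flanks. Intronic regions with a word stand at 31.8% in the first bin and 5.45% in the next, and their GC content at 47.8% and 33.8%.

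Hosts were spread over many gene families. Lists defined by gene symbol were set against the 13441 autosomal protein-coding genes with an eligible intron position, of which 413 (3.07%) were hosts. Since long introns offer more room, members per eligible Mb are given too, at 19.9 over all genes. The lists are incomplete, because a gene with another kind of symbol is missed, and each count and leading gene holds for the listed genes only. Hosts missed in this way, named after their values were seen, include the homeobox genes Y56A3A.7 (67.5), irx-1 (36) and cone-1 (31.8), the zinc finger gene zfp-1 (53.8) and the forkhead gene C34B4.2 (31). They also include the kinase genes let-363 (315) and mnk-1 (33.9) and the RNA and translation genes smg-2 (42.2), smg-3 (38) and eif-3.J (29.8). The list of ion channels and transmitter receptors had 13 hosts of 148 (8.78%) and 23.7 members per Mb. Their strongest were twk-14 (signal 29) and twk-5 (27.9), both potassium channel genes. The list of zinc finger, bHLH and related factors had 10 of 115 (8.70%) and 32.2 per Mb, led by the Snail-type factor ces-1 (29.8) and the heterochronic factor lin-29 (28.1). The nuclear receptor list had 8 of 233 (3.43%) and 36.5, led by nhr-19 and nhr-85 (26.9). The homeobox list had 2 of 60 and 13.2, the Hox gene mab-5 (25.8) and ttx-1 (23.9).

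The list of GTPase and kinase signalling had 9 hosts of 109 (8.26%) and 19.6 members per Mb, led by mpk-2 (31.9) and the kinase gene kin-4 (30.7). The adhesion and guidance list had 3 of 49 and 8.26 per Mb, among them the netrin receptor unc-40 (25.7) and the Eph receptor vab-1 (24.7). The muscle and cytoskeleton list had 3 of 50 and 15.7, led by the dynein genes dhc-4 and dhc-3 (26.9). The synaptic list had 2 of 34 and 19.3, tomosyn tom-1 (25.6) and unc-41 (23.2). The RNA and translation list had 3 of 85 and 27.5, led by the mitochondrial ribosomal genes mrpl-46 (26.2) and mrpl-45 (24.0).

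The collagen and cuticle list had 7 hosts of 85 and the highest figure per length, 74.5 members per eligible Mb, with the least eligible intron sequence per gene of the lists, at 1.10 kb. Only 3 of the 7 were collagens, col-85 (36.4), col-72 (28.4) and col-159 (24.8). The others entered by symbol and have other roles, such as the receptor kinase rol-3, the proprotein convertase bli-4 and the metalloprotease dpy-31. In col-85 the replicates had 18.6 and 14.1, while col-72 and col-159 had no candidate in replicate 2.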

How the data were processed

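ChIP-seq of 1 group with 2 biological replicates was analysed from 4 peak lists on ce11. The authors deposited a signal value per region in column 7 of each list, whose scale is not stated. Read depth is unknown, and the precision it gives cannot be stated. Candidates were called against a control that was not analysed here. Which caller and aligner were run is not given in the sources used here. Summits were placed on Ensembl release 115 (WBcel235, the ce11 sequence), and sequence came from RefSeq. Regions were matched by an overlap of at least 1 bp, taking the nearest summit. Python 3.11.15, numpy 2.4.6, pandas 2.3.3 and scipy 1.17.1 were used. With 1 group no test over samples was possible, so shares carry Wilson intervals. Intron order, window edges and the overlap rules were tested on simulated summits. The members, words and 10 gene lists were chosen with earlier results of these data known, and the small RNA genes and gapped patterns after seeing them. Named genes are hosts of the IDR members, hosts with several members, the 2 strongest of each list, the 5 widest replicate differences, the edges of the rule and R02D3.7, and others were named after their values were seen. Alternatives were other list lengths, each replicate alone, other windows, overlaps and word windows, and RefSeq starts. The ce10 lists were not used.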

Additional observations from a re-analysis of the deposited data

How the results depend on the processing

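Of 85 alternative values, 58 stayed close to the value reported, 27 moved and 0 changed sign, which only the log2 ratio could do. Close means within the 95% interval of a share or median, within 1.5 times of the number of regions and, for mean GC, within the SD between the values of the 2 replicates' own lists. With ranks 1 to 1000 there were 77 regions, with 28.6% in the IDR set, 40.3% in both replicates' strongest 3000, 88.3% in both replicates, 19.5% in first introns, a median intron of 1329 bp, 37.8% GC, a log2 ratio of 1.08, 1372 bp to the nearest 5′ end and 6.49% beside a snoRNA gene. With the IDR set there were 22 regions, with 13.6% in first introns, a median intron of 2672 bp, 31.8% with a word, 47.8% GC, 1879 bp to the nearest 5′ end and 13.6% beside a snoRNA gene. The share in both replicates' strongest lists was 3.17% with 1000 regions of each and 15% with 5000. The share in any candidate of both was 71.0% when 50% of the shorter region had to overlap and 60.3% with summits within 100 bp. Counting first introns of any transcript gave 36.1%. A word was found at 5.90% with 30 bp to each side and at 17% with 100 bp. The distance to a 5′ end was 1276 bp with a window of 500 bp upstream and 1872 bp with 2000 bp, where the window itself sets the nearest distance allowed. Apart from the windows, the cause of these changes was not tested.

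Applying the rule to either replicate's list alone gave 448 to 542 regions, 25% to 25.3% in first introns, introns of 910 to 1182 bp, 30.6% to 33.1% GC and 1492 to 1528 bp to a 5′ end. The share with a word ran from 6.46% without replicate 1 to 11.6% without replicate 2, and 1.66% and 1.79% lay beside a snoRNA gene, below the 2.72% of the joined list. The alternative with RefSeq starts and those for snoRNA genes were chosen after seeing the data. No paired analysis was possible because the labels give 1 group. Unknown depth limits what absence from a replicate's list shows.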

Other observations

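In promoter windows, 200 regions of ranks 1 to 3000 also had a summit in an intron. Their median signal was 25.1, and 16% held any of the 3 words. On X, the box A or box B pattern was within 100 bp of the summit at 14 of 496 strong regions (2.82%, interval 1.69 to 4.68), beside 8 of the 441 autosomal intronic members (1.81%, interval 0.922 to 3.54).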
